A study of Homo sapiens with 24 samples.

Results

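Genes tied to Parkinson disease, together with the synucleins other than the alpha form, were followed in LUHMES aggregates during and after exposure to rotenone. The 7 genes were SNCB, SNCG, PINK1, PARK7, UCHL1, VPS35 and LRRK2, chosen by name, and their probes were found through the RefSeq accession that the array gives for each probe. They had 9 of the 50599 different probes and made up 7 of the 21743 genes that could be named, of which 21239 were tested. VPS35 had 3 probes and each of the others had 1. All 9 probes passed the filter on dim signals, but LRRK2 was well above background on 0 of 24 arrays and the other 6 genes on all 24. Counts and medians over the 7 genes include LRRK2 although it was not detected.

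LUHMES is a human mesencephalic cell line carrying a v-myc gene that tetracycline switches off, after which the cells become postmitotic neurons. Every group was this 1 line, differentiated in suspension as aggregates in medium with cAMP, GDNF, tetracycline and N2. Rotenone, a pesticide that blocks complex I of the respiratory chain, was given from day 7 at 50 nM for 12 h (R50 12 h), 50 nM for 24 h (R50 24 h) or 100 nM for 24 h (R100), and controls received DMSO in the amount that came with the higher dose. Aggregates were taken after exposure, on day 8 (D8), or after wash-out and 7 days of recovery, on day 15 (D15). The sample titles give day 8 for the 12 h exposure too, without the hour at which it started or ended. The 8 groups had 3 single-color arrays each, with all 8 groups on each of 3 slides. The 3 rotenone groups of a day shared the same 3 DMSO arrays, so that their comparisons are not independent. The labels do not say whether the 3 samples of a group came from separate cultures, and p values measure the spread between these samples, which may be technical.

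SNCB and SNCG encode beta- and gamma-synuclein, small neuronal proteins that are related to the main protein of Lewy bodies. PINK1 is a kinase that accumulates on damaged mitochondria and starts their removal by mitophagy, PARK7 (DJ-1) is a redox-sensitive protein that protects against oxidative stress, UCHL1 is an abundant neuronal ubiquitin hydrolase, VPS35 is the core of the retromer that returns receptors from endosomes, and LRRK2 is a kinase that phosphorylates Rab GTPases. Inherited mutations in several of these genes cause Parkinson disease, and rotenone is widely used to model the disease because dopaminergic neurons are sensitive to loss of complex I.

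On slide 1, which had been repeated, the scanner software marked 64.4 to 80.5% of spots as well above background, on slides 2 and 3 it marked 48.1 to 60.3%, and the values of slide 1 were corrected for the slide. The residual SD over genes was 0.453 (log2) on the array of D15 R100 replicate 3 and 0.205 to 0.313 on the other arrays. The scan name of D15 DMSO replicate 1 gives 12 h and does not name DMSO, so that its group rests on its label. Of the markers that define dopaminergic neurons, TH, DDC, SLC6A3 and NR4A2 were well above background on all arrays, as were the general neuronal markers TUBB3, MAP2, RBFOX3 and STMN2. SLC18A2, the vesicular monoamine transporter, was well above background on only 3 of 24 arrays. Of the 6 astrocyte markers GFAP was well above background on 1 array and AQP4, S100B, SLC1A3, GJA1 and ALDH1L1 on 8, 8, 9, 9 and 10 of 24, and the mean level of the list was 3.88 to 4.57 over the arrays. In each group 0 or 1 of the 6 was well above background on all 3 arrays. Of the 5 microglia markers tested P2RY12, C1QA, CX3CR1, CSF1R and PTPRC were well above background on 1, 2, 4, 11 and 23 arrays, with a mean level of 3.71 to 4.20. The oligodendrocyte markers MOG, MBP and CNP were well above background on all 24 and SOX10 on 8. Their levels were 4.82 to 5.73, 5.27 to 5.82, 9.94 to 10.61 and 2.86 to 4.73.

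The clearest difference among the 7 genes was between the synucleins on the 2 days. SNCB was 2.96-fold higher in DMSO aggregates on D15 than on D8, whereas SNCG differed by less than its spread. The stretches of 250 bases before the RefSeq starts of both genes are shown because these 2 related genes parted in their course. They come from the promoter set of RefSeq on GRCh38.p14, which held 6 of the 7 genes, PINK1 not among them. Capitals mark the GC box GGGCGG on either strand (CCGCCC when read on the strand shown). SNCB lies on the minus strand (chr5:176630535-176630784), and SNCG has 2 listed starts on the plus strand (chr10:86955509-86955758 and chr10:86958349-86958598).
SNCB: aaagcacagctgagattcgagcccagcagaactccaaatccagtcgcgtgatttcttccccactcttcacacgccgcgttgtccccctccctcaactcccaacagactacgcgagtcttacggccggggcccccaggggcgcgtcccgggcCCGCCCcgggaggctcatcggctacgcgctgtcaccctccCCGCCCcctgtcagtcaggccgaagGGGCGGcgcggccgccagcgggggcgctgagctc
SNCG, upstream start: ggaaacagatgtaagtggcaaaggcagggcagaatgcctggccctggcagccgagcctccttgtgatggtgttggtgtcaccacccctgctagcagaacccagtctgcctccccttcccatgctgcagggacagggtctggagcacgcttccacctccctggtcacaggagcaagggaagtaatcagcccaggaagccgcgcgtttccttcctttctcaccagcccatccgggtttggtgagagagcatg
SNCG, downstream start: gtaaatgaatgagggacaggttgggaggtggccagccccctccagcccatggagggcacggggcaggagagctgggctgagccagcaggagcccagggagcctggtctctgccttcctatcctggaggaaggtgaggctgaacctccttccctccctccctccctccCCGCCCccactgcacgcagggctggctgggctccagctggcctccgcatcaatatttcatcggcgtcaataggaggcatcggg
The SNCB stretch held 3 GC boxes and 26 CpG dinucleotides and was 69.2% G or C. Those of SNCG held 0 and 1 GC boxes and 6 and 7 CpG dinucleotides, with 60% and 65.2% G or C. Among 35116 stretches of the same length in the set, 42.6% held a GC box, and the median was 11 CpG dinucleotides and 58% G or C. Of the other members, PARK7, LRRK2, UCHL1 and VPS35 had 28, 25, 20 and 20 CpG dinucleotides. These are properties of the reference sequence, which the arrays did not test.

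**Figure D1:**
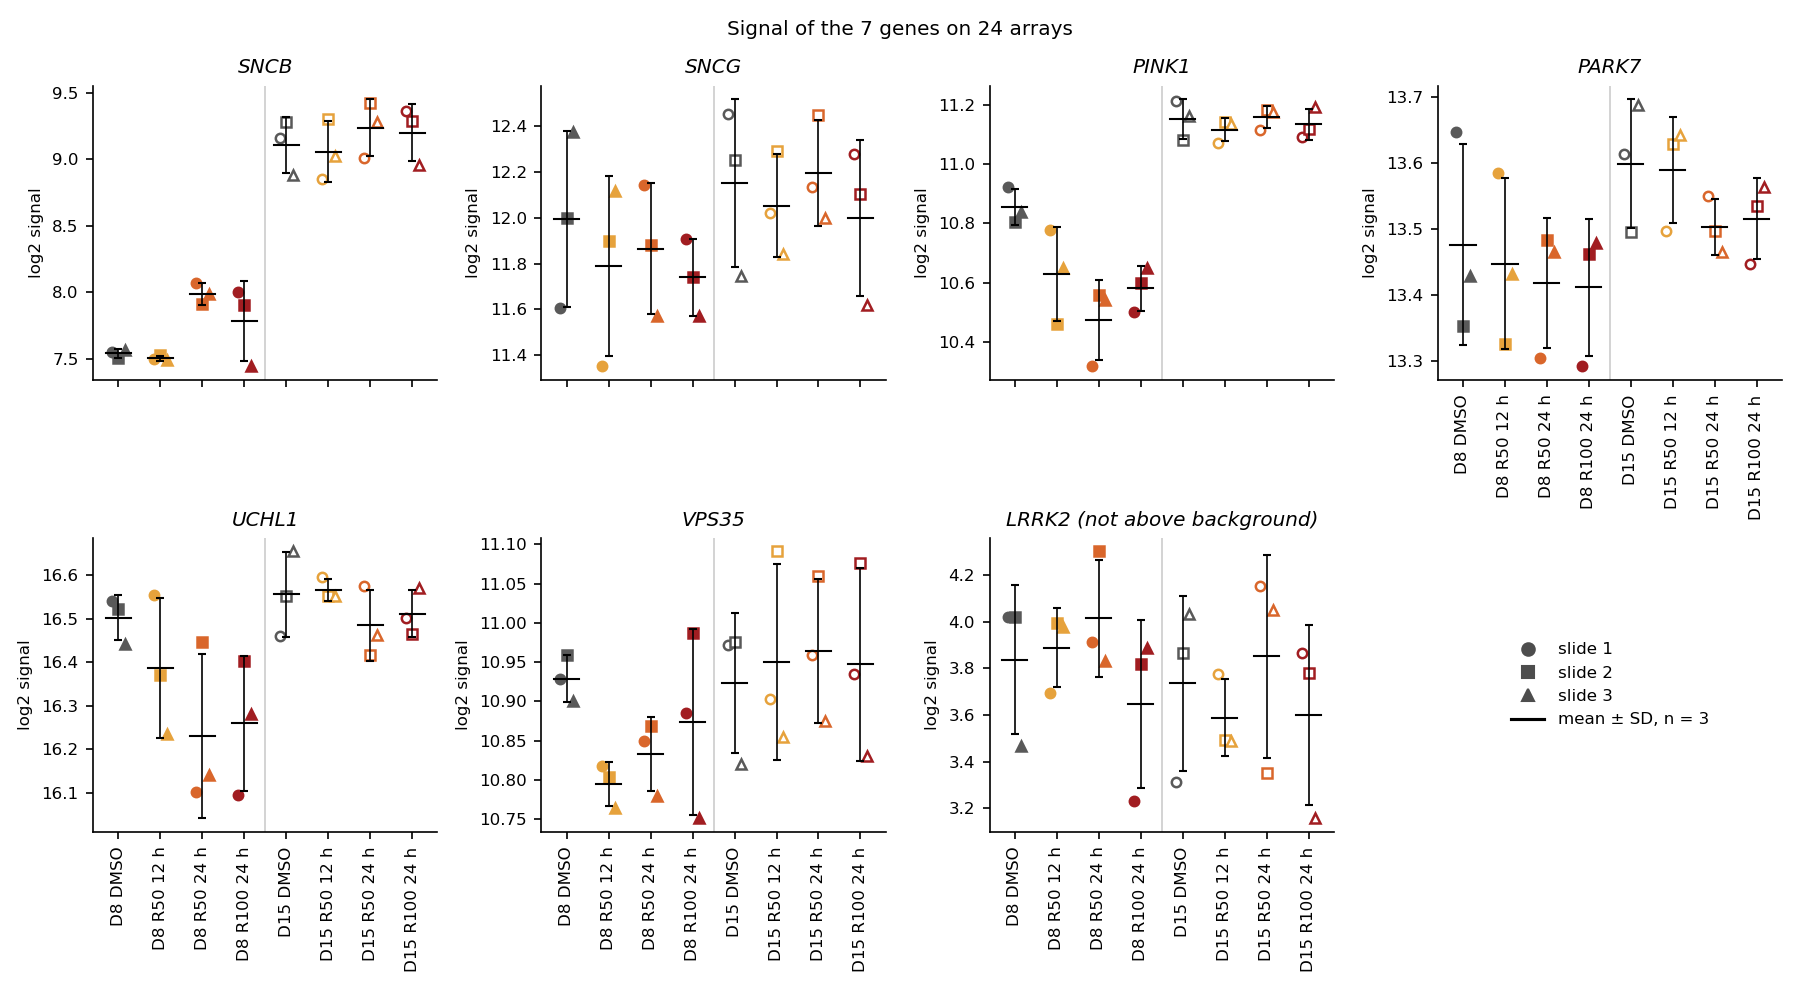
Normalized log2 signal (y axis) of the 7 genes on each array in the 8 groups (x axis), with filled symbols for D8, open symbols for D15, a symbol shape per slide, and the mean ± SD of 3 arrays. All D15 arrays lie above all D8 arrays for SNCB and PINK1, and LRRK2 was not well above background on any array. Scales differ between panels and levels are not compared between genes.

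On D8, SNCB read 7.55, 7.51 and 7.56 (log2 signal) on the 3 DMSO arrays and 7.50, 7.53 and 7.49 after R50 12 h. After R50 24 h it read 8.07, 7.91 and 7.99, and after R100 it read 8.00, 7.91 and 7.44. The R50 24 h arrays did not overlap with DMSO, while the third R100 array lay below all DMSO arrays. On D15 the readings were 9.16, 9.28 and 8.88 with DMSO, 8.85, 9.30 and 9.02 after R50 12 h, 9.01, 9.43 and 9.28 after R50 24 h, and 9.36, 9.29 and 8.95 after R100. Thus the 12 arrays of D15 (8.85 to 9.43) all lay above the 12 arrays of D8 (7.44 to 8.07), whatever the exposure. Such a gap between the days was seen for 2 of the 7 genes, against 12.9% of all genes, and for both it was upward, against 5.52% of all genes.

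In the fit of all arrays with limma, SNCB rose by 1.57 ± 0.153 (log2, SE) from D8 to D15 in DMSO aggregates (adjusted p = 3.52e-07). Within slides 1, 2 and 3 the difference was 1.60, 1.79 and 1.29, and leaving out single arrays moved it between 1.47 and 1.69. In this comparison 23.2% of all genes were called at an adjusted p under 0.05, 10.1% as higher and 12.2% with a fold change over 1.5. Of the 7 genes, SNCB and PINK1 were called, both as higher, and SNCB alone exceeded 1.5-fold. Over the 7 genes, with the undetected LRRK2 included, the median difference was 0.123, against -0.0352 over all genes tested.

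After rotenone on D8, SNCB was 0.45 higher than DMSO with R50 24 h (95% interval 0.13 to 0.77), which did not pass the threshold (unadjusted p = 0.00866, adjusted p = 0.0836, limma). The value was 0.51, 0.40 and 0.42 within the 3 slides. After R100 the difference was 0.24 (adjusted p = 0.426), or 0.42 without R100 replicate 3 (adjusted p = 0.114), and after R50 12 h it was -0.04 (adjusted p = 0.963). R50 24 h lay 0.49 above R50 12 h, with no overlap between their arrays (adjusted p = 0.195), a comparison in which 0.537% of all genes and 0 of the 7 were called and 16.9% of all genes did not overlap. On D15 the differences from DMSO were between -0.05 and 0.13, and the day-by-rotenone difference was -0.32 for R50 24 h (adjusted p = 0.605). In order of the group means, the D15 groups lay within 0.5 pooled SD of their neighbours, a gap of 1.07 (5.67 pooled SD) set them apart from D8, and D8 R50 24 h, D8 R100 and D8 DMSO followed at steps of 1.1 and 1.29 pooled SD.

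SNCG read 11.61, 12.00 and 12.38 on the D8 DMSO arrays, 11.35, 11.90 and 12.12 after R50 12 h, 12.14, 11.88 and 11.57 after R50 24 h, and 11.91, 11.74 and 11.57 after R100. The spread within a group (pooled SD 0.31) was wider than every step between neighbouring group means, and rotenone and DMSO arrays overlapped throughout. The slide with the highest value was slide 3 in D8 DMSO and D8 R50 12 h but slide 1 in D8 R50 24 h and D8 R100. On D15 it read 12.45, 12.25 and 11.74 with DMSO and 12.28, 12.10 and 11.62 after R100. From D8 to D15 SNCG differed by 0.16 in DMSO aggregates (95% interval -0.35 to 0.66), and the rotenone differences ranged from -0.25 to 0.04, with adjusted p of 0.661 to 1. The neighbours in its order of group means were all less than 0.5 pooled SD apart.

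Genes of synaptic vesicles and their release were listed for comparison, and 13 of 14 were tested. In DMSO aggregates 10.1% of all genes were called as higher on D15 than on D8. Of this list 5 rose and 0 fell, with a median difference of 0.39 against -0.0352 over all genes. They were SYN2, a synapsin (1.77 ± 0.128, SE, from 6.81 to 8.58), PCLO (0.76) and BSN (0.39), scaffolds of the active zone, and STX1A (0.48) and SNAP25 (0.29), which drive vesicle fusion. PCLO, BSN, STX1A and SYN2 were named after their values were seen. After R100 on D8 SNAP25 fell by 0.30 (adjusted p = 0.0407) and no other gene of the list was called, while after R50 24 h only CPLX1, a complexin, was called (0.43 higher). Of all genes 9.48% and 8.01% were called in these comparisons.

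Cell markers also moved between the days. TH, the rate-limiting enzyme of dopamine synthesis, fell by 2.95 (from 9.78 to 6.84), SLC6A3, the dopamine transporter, fell by 2.07, and the transcription factor NR4A2 rose by 1.57. Of 12 dopaminergic markers 5 rose and 2 fell, with a median difference of 0.361 against -0.0352 over all genes. Between the days of DMSO aggregates 23.2% of all genes were called, 10.1% as higher. Of 7 markers of dividing progenitors 4 fell. Of the defining ones TOP2A fell by 2.62, CDK1 fell by 1.05 and MKI67 fell by 0.71. These genes were well above background on only 12, 19 and 15 arrays. Their lowest readings (3.22, 3.29 and 3.70) lay within the range of the negative controls' 95th percentile (3.11 to 4.07), so that the sizes of their falls are uncertain. On the DMSO arrays the mean level of the 7 progenitor markers was 5.61 to 6.18 on D8 and 5.05 to 5.25 on D15. Of 10 neuronal markers 2 rose and 1 fell. The part of these shifts in the rise of SNCB and PINK1 was not tested. In aggregates, fewer cells of a type and less RNA per cell cannot be told apart.

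PINK1 read 10.92, 10.80 and 10.84 on the D8 DMSO arrays. It read 10.78, 10.46 and 10.65 after R50 12 h, 10.32, 10.56 and 10.54 after R50 24 h, and 10.50, 10.60 and 10.65 after R100. All 9 rotenone arrays of D8 lay below all 3 DMSO arrays of that day. On D15 the 12 arrays lay between 11.07 and 11.21, above all D8 arrays, with 11.21, 11.08 and 11.16 for DMSO and 11.09, 11.12 and 11.19 for R100. The groups of D15 were all within 0.25 pooled SD of their neighbours, and the steps from there to D8 DMSO and on to D8 R50 12 h were 2.92 and 2.54 pooled SD.

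PINK1 fell by 0.38 ± 0.0861 (SE) after R50 24 h on D8, 1.30-fold (adjusted p = 0.00868, limma), and was the only one of the 7 genes called in a rotenone comparison. In that comparison 8.01% of all genes were called, 4.36% as lower. The difference was -0.63, -0.24 and -0.29 within slides 1, 2 and 3, and without R50 24 h replicate 1 it was -0.29 and no longer called (adjusted p = 0.0704). The call was also lost with no batch correction, with slides 2 and 3 only and with only the arrays of the groups compared (-0.39, -0.26 and -0.38, adjusted p = 0.271, 0.341 and 0.11). The size was 0.27 after R100 (-0.27, unadjusted p = 0.00525, adjusted p = 0.0538), just outside the threshold, and 6 of 12 other ways of processing put it inside. After R50 12 h the difference was -0.23 (adjusted p = 0.157), or -0.32 without R50 12 h replicate 1 (adjusted p = 0.0456). R100 and R50 24 h differed by 0.11 (95% interval -0.07 to 0.29), in a comparison in which 0% of all genes were called and 4.17% had an unadjusted p under 0.05.

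After recovery the difference of PINK1 from DMSO was -0.02 (R100), 0.01 (R50 24 h) and -0.04 (R50 12 h), with 95% intervals that all reached less than 0.25 from 0. The change in the R50 24 h effect between the days was 0.39 (95% interval 0.13 to 0.64), which did not pass the threshold (limma, adjusted p = 0.11). For R100 it was 0.26 (adjusted p = 0.347). In these tests of the day-by-rotenone difference 2.16%, 2.44% and, for R50 12 h, 1.07% of all genes were called and 0 of the 7, 1 of which had an unadjusted p under 0.05 for R50 24 h and 0 for the others. In DMSO aggregates PINK1 rose by 0.30 ± 0.0861 (SE) from D8 to D15 (adjusted p = 0.0171), by 0.29, 0.28 and 0.32 within the slides. That call was lost without D8 DMSO replicate 2 (0.27, adjusted p = 0.0672), D8 DMSO replicate 3 (0.29, 0.0533) or D15 DMSO replicate 1, the array with the differing scan name (0.26, 0.0683).

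**Figure D2:**
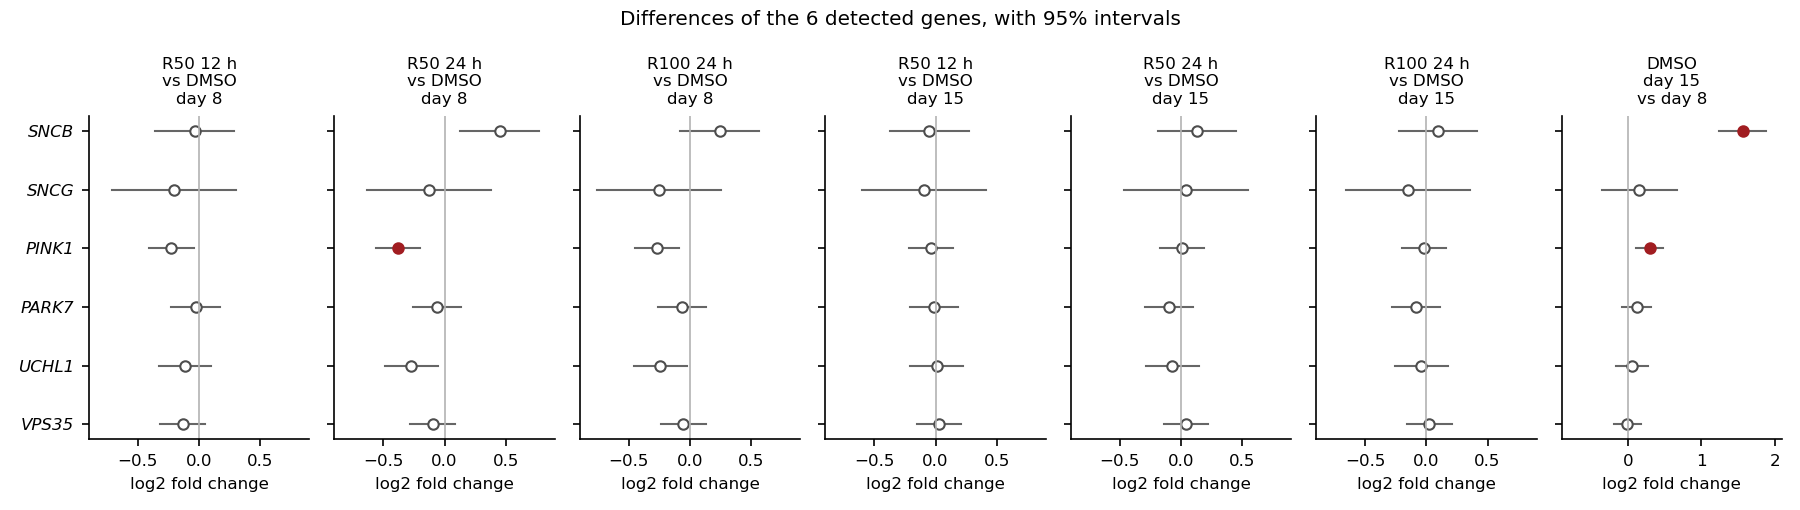
Log2 fold change (x axis) of the 6 detected genes (y axis) in 7 comparisons, with 95% intervals from limma as lines and filled red points where the adjusted p was under 0.05. SNCB and PINK1 are filled in the comparison of the days and PINK1 after R50 24 h on D8, and on D15 all intervals span 0.

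The genes that import, cleave or act with PINK1 moved in both directions. Of 27 listed and tested, 2 rose and 4 fell after R100 on D8, with a median of -0.104 against -0.0225 over all genes, and 9.48% of all genes were called. OMA1, a protease of the inner mitochondrial membrane, rose by 0.43, 0.44 and 0.46 after R100, R50 24 h and R50 12 h, and OPTN, an autophagy receptor, by 0.41, 0.51 and 0.41. USP15, a deubiquitinase, fell by 0.48, 0.40 and 0.43. PMPCB, a subunit of the peptidase that removes mitochondrial presequences, fell by 0.36 after R100, BNIP3L, a mitophagy receptor, fell by 0.26, and PARL, the protease that cleaves PINK1 in healthy mitochondria, fell by 0.23 (adjusted p = 0.0499). PARL was named after its value was seen. On D15 none of the 27 was called, and 1, 0 and 0 had an unadjusted p under 0.05 after R100, R50 24 h and R50 12 h. Over all genes 0% were called in each of these comparisons, and 7.2%, 3.28% and 3.46% had an unadjusted p under 0.05.

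Among the general neuronal markers ELAVL4 and MAP2 also fell after R100 on D8, by 0.51 and 0.57, and by 0.71 and 0.49 after R50 24 h, while the other 8 of the 10 did not pass the test. Of all genes 9.48% and 8.01% were called in these comparisons. The mean level of the 10 markers was 13.70 to 13.88 on D8 DMSO arrays, 13.60 to 13.67 after R100 and 13.50 to 13.70 after R50 24 h. None of the 12 dopaminergic markers was called after R100 (3 at an unadjusted p under 0.05, limma, against 20.6% of all genes). After R50 24 h 1 of the 12 was called, the potassium channel KCNJ6, which rose by 0.58 (adjusted p = 0.0495, limma) and was named after its value was seen, and their median was 0.162 against -0.0196 over all genes. Their part in the lower PINK1 level was not tested.

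PARK7 varied little. It read 13.65, 13.35 and 13.43 on the D8 DMSO arrays and 13.29, 13.46 and 13.48 after R100, and the extremes over all 24 arrays were 13.29 and 13.69. The lowest and highest readings of D8 were both on slide 1. Its differences from DMSO ranged from -0.10 to -0.01 over the 6 rotenone comparisons and it was 0.12 higher on D15 than on D8 in DMSO aggregates (95% interval -0.07 to 0.32, adjusted p = 0.398). No neighbours in its order of groups were a pooled SD (0.102) apart. Among 9 genes of glyoxalase, glutathione and thioredoxin metabolism, which share its protective role, none was called after R100 on D8 (4 at an unadjusted p under 0.05) and TXN, thioredoxin, rose by 0.32 after R50 24 h. Over all genes 9.48% were called after R100 and 20.6% had an unadjusted p under 0.05. After R50 24 h 1 of the 9 was called, against 8.01% of all genes. From D8 to D15 in DMSO aggregates 0 of the 9 rose and 2 fell, where 23.2% of all genes were called, 10.1% as higher. PRDX1, a peroxiredoxin, fell by 0.55 and GCLC, an enzyme of glutathione synthesis, fell by 0.37. TXN, PRDX1 and GCLC were named after their values were seen.

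UCHL1 read 16.54, 16.52 and 16.44 on the D8 DMSO arrays, 16.55, 16.37 and 16.24 after R50 12 h, 16.10, 16.45 and 16.14 after R50 24 h, and 16.10, 16.40 and 16.28 after R100. The R100 arrays lay below all DMSO arrays, while slide 2 of R50 24 h overlapped with them. The difference was -0.24 after R100 (95% interval -0.46 to -0.03, adjusted p = 0.174) and -0.27 after R50 24 h (adjusted p = 0.127), so that neither passed. Without R50 24 h replicate 2 the latter was -0.39 (adjusted p = 0.0293), and without R100 replicate 1 the former was -0.14 (adjusted p = 0.575). Scaling to the 75th percentile in place of quantile normalization gave -0.04 for both (adjusted p = 0.982 and 0.954). On D15 all arrays lay between 16.42 and 16.66 and the differences from DMSO were -0.07 to 0.01. This gene lies near the top of the signal range, where quantile normalization gives equal values at equal rank, and 3 D15 arrays read 16.55 alike.

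Another 9 genes of ubiquitin and its hydrolases were listed with UCHL1. None was called after R100 on D8 (2 at an unadjusted p under 0.05), and their median was -0.166. Over all genes 9.48% were called in that comparison and 20.6% had an unadjusted p under 0.05. After R50 24 h 2 of the 9 were called, both lower, against 8.01% of all genes, 4.36% as lower. Among those called the hydrolase BAP1 fell by 0.55, and the median over the list was -0.276 against -0.0196 over all genes. At an unadjusted p under 0.05 there were 4 of the 9, against 19.6% of all genes. UCHL3, the nearest relative of UCHL1 in the list, rose by 0.32 after R50 12 h, where 1 of the 9 and 5.52% of all genes were called. BAP1 and UCHL3 were named after their values were seen.

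VPS35, averaged over its 3 probes, read 10.93, 10.96 and 10.90 on the D8 DMSO arrays, 10.82, 10.80 and 10.76 after R50 12 h, 10.85, 10.87 and 10.78 after R50 24 h, and 10.89, 10.99 and 10.75 after R100. Both R50 groups lay below all DMSO arrays, with differences of -0.13 (adjusted p = 0.506) and -0.10 (adjusted p = 0.652), and R100 overlapped. The probes did not move together. After R50 24 h the difference from DMSO was -0.328 on A_21_P0011439, -0.0384 on A_24_P270769 and 0.0768 on A_32_P3556, and after R50 12 h it was -0.232, 0.00101 and -0.17. Across the 24 arrays, which share slides and normalization, the probes correlated with r of 0.237, 0.104 and -0.12. On D15 the mean over the probes was between 10.92 and 10.96 in all groups, and DMSO aggregates differed by -0.01 between the days (adjusted p = 0.972).

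**Figure D3:**
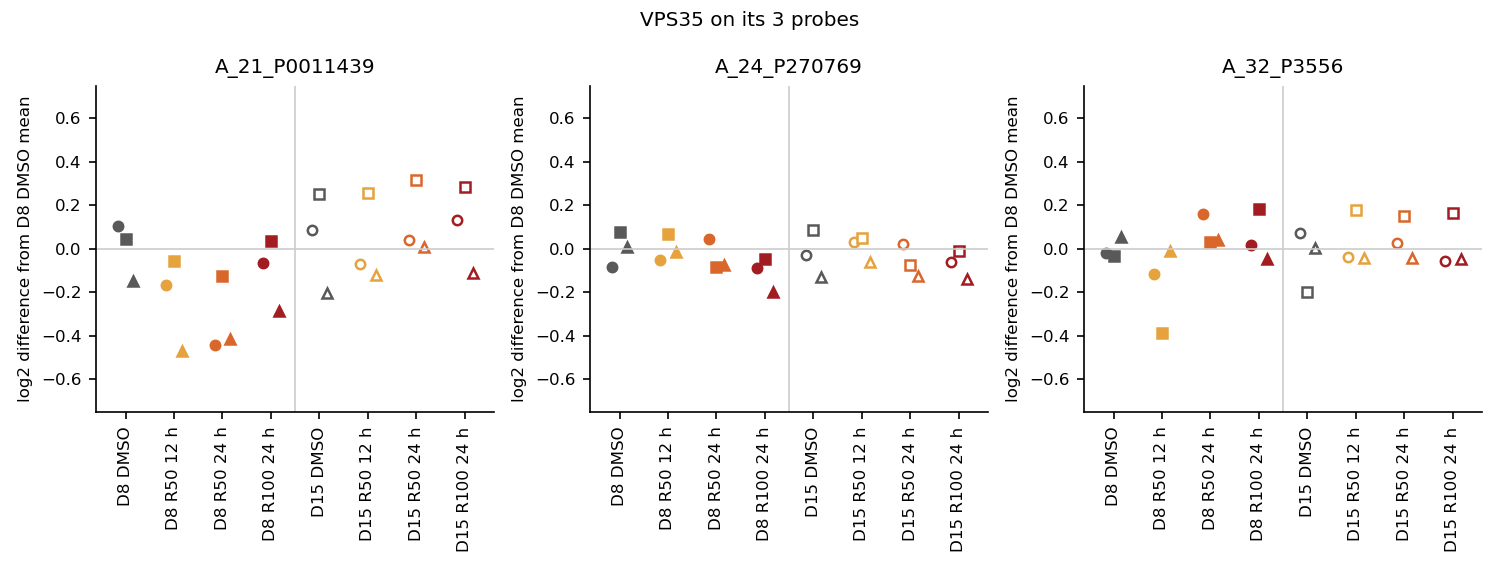
Log2 difference of each array from the D8 DMSO mean (y axis) on the 3 probes of VPS35 in the 8 groups (x axis), with circles, squares and triangles for slides 1, 2 and 3, filled for D8 and open for D15. The lower readings after R50 stand on A_21_P0011439 and, after R50 12 h, on 2 arrays of A_32_P3556, while A_24_P270769 shows no such fall.

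Counted over the 7 genes, 2, 3 and 2 had no overlap between rotenone and DMSO arrays on D8 after R100, R50 24 h and R50 12 h, against 28.5%, 28.1% and 23.6% of all genes. They were PINK1 in all 3 comparisons, UCHL1 after R100, SNCB after R50 24 h and VPS35 after both R50 exposures. With limma 0, 1 and 0 of the 7 were called, against 9.48%, 8.01% and 5.52% of all genes, and 2, 3 and 1 had an unadjusted p under 0.05, against 20.6%, 19.6% and 16.7%. On D15 0 of the 7 were called after any exposure, as were 0% of all genes. At an unadjusted p under 0.05 there were also 0 of the 7, against 7.2%, 3.28% and 3.46% of all genes.

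Of 19 listed partners of the retromer, which VPS35 holds together, 1 rose and 0 fell after R100 on D8, where 9.48% of all genes were called. The partner that rose was SORL1, a sorting receptor that the retromer recycles, by 0.67 after R100 (adjusted p = 0.019), 0.65 after R50 24 h and 0.85 after R50 12 h. On D15 it was 0.28 lower than DMSO after R100 (adjusted p = 0.737), and the R100 effect differed between the days by -0.95 (adjusted p = 0.0487). SORL1 was named through its R100 call on D8, and the same values enter this difference. From D8 to D15 in DMSO aggregates 4 partners rose and 2 fell, where 23.2% of all genes were called, 10.1% as higher. VPS26A, a core subunit bound to VPS35, rose by 0.41, SORL1 by 0.67, IGF2R, the mannose phosphate receptor, by 0.47, and RAB7A, the late endosomal GTPase, by 0.19, while WASHC5, of the actin-nucleating WASH complex, fell by 0.48 and SNX5, a sorting nexin, by 0.27. Those other than SORL1 were named after their values were seen.

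LRRK2 was not measured. Its log2 signal lay between 3.16 and 4.30, where the 95th percentile of the negative controls was 3.11 to 4.07, and it exceeded that percentile on 11 of 24 arrays. Its raw signal was 20 to 57 beside a local background of 21 to 35 on the same arrays. No fold change is given. The Rab GTPases that LRRK2 phosphorylates and their partners were detected more widely, and 18 of 19 were tested.

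Among these, RILPL1, which binds phosphorylated Rab GTPases, showed the largest rise of any gene in the pathway lists after R100 on D8. It read 7.52 to 7.70 on D8 DMSO arrays and 8.60 to 8.76 after R100, with no overlap. The rise was 1.096 ± 0.0991 (SE; adjusted p = 1.58e-06), and the readings after R50 24 h and R50 12 h were 8.42 to 8.59 and 8.56 to 8.63. On D15 its mean was 8.45 with DMSO and 8.39 to 8.45 after rotenone, so that DMSO aggregates themselves had risen by 0.85 and the R100 effect differed between the days by -1.12 (adjusted p = 0.000293). RILPL1 was named through its R100 call on D8, and the same values enter this difference. RAB5A, a GTPase of early endosomes, fell by 0.40 after R100 (adjusted p = 0.00421), and the other 16 were not called. After R100 on D8 9.48% of all genes were called. From D8 to D15 6 of the 18 rose and 1 fell, where 23.2% of all genes were called, 10.1% as higher. RAB3B, a GTPase of secretory vesicles, rose by 1.53, and RAB29, which recruits LRRK2 to membranes, by 0.90. The fall was that of SPAG9, by 0.45, and these 3 were named after their values were seen.

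**Figure D4:**
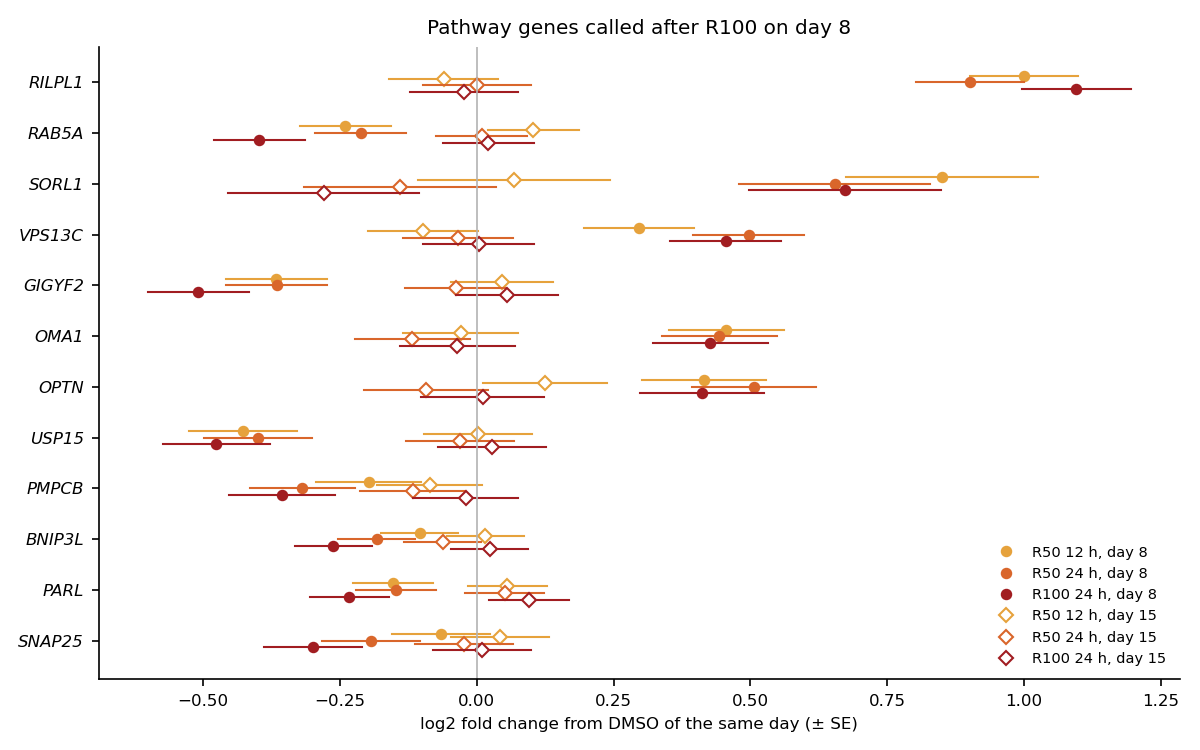
Log2 fold change from DMSO of the same day (x axis, ± SE) for the 12 pathway genes called after R100 on D8 (y axis), with filled circles for D8 and open diamonds for D15 and a colour per exposure. The genes were chosen for the D8 R100 values, which are a description, and their D15 values lie between -0.28 and 0.13.

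Of 20 other genes linked to Parkinson disease, 1 rose and 1 fell after R100 on D8, where 9.48% of all genes were called. VPS13C, a lipid transfer protein, rose by 0.46 (adjusted p = 0.00651), and GIGYF2, an adaptor in translational repression, fell by 0.51 (adjusted p = 0.00137). After R50 24 h they differed by 0.50 and -0.37, both called, and on D15 after R100 by 0.0034 and 0.06. The effect of R100 on GIGYF2 differed between the days by 0.56 (adjusted p = 0.0257), a difference that holds the D8 values for which the gene was named. From D8 to D15 5 of the 20 rose and 2 fell, where 23.2% of all genes were called, 10.1% as higher. Among the 5 that rose, DNAJC6, an auxilin that uncoats clathrin vesicles, rose by 1.02, and GCH1, the first enzyme of the dopamine cofactor pathway, by 0.70. Both were named after their values were seen.

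Across the 24 arrays, SNCB and PINK1 correlated with r = 0.801, PINK1 and UCHL1 with 0.766, and PARK7 with PINK1 and UCHL1 with 0.697 and 0.694, while SNCG and UCHL1 gave 0.034. Over the 8 group means the same pairs gave 0.86, 0.916, 0.873, 0.893 and 0.788. Arrays of the 2 days and of shared slides are not independent points, and these values are descriptive. Among 12921 other genes well above background on all arrays, those most like SNCB were NHERF2 (r = 0.981) and LGALS1 (0.98), and those most like PINK1 were ACOT7 (0.982) and MOAP1 (0.978). For UCHL1 they were BAG1 (0.922) and PIGS (0.888), for VPS35 TERF2 (0.924) and DAAM1 (0.902), for SNCG TENM4 (0.84) and SLC37A1 (0.808), and for PARK7 TIMM23 (0.806) and EEF1G (0.795).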

How the data were processed

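RNA of LUHMES aggregates was measured on 24 Agilent single-color arrays, which the authors read with Feature Extraction (11.5.1.1 per the methods; the files of slide 2 name 12.0.0.7). The authors deposited the intensity of each spot with its local background and flags, and a table of log2 values normalized by them for 21733 probes, with column medians of 6.42 to 6.64 and a correlation of about 0.99 with the values here. Whether that table holds the correction for slide 1 is not given in the sources used here.

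As in the study's methods, median intensities were corrected with normexp and quantile normalized, a batch was adjusted by parametric ComBat, and spots 1.1 times brighter than the negative controls' 95th percentile on 3 arrays were kept. The methods describe the batch as arrays processed at another time and washed differently. Chosen here were the offset of 0, the groups as covariates, and slide 1 as the batch, since the labels of its samples ask for batch correction. Flagged values were set to missing, and values were averaged by probe and then by gene, with names from RefSeq accessions (GRCh38.p14; 30275 of 50599 probes). limma 3.58.1 (R 4.3.3, data.table version 1.17.8) was fitted to all arrays and 21239 genes, with 16 residual and 2.37 prior degrees of freedom, two-sided p values and Benjamini-Hochberg adjustment over all genes. A call is an adjusted p under 0.05. ComBat was written out and, with the fit, tested on simulated data. The number of arrays limits the precision. Before ComBat, same-numbered samples, which share a slide, deviated together in all 84 pairs (correlation 0.162 to 0.759). The 7 genes and the lists were chosen with earlier results of these data known. Named were the 7 genes, the 2 genes most correlated with each, up to 3 called genes per list and direction after R100 on D8, and defining markers, and 1 gene of a list is not reported here. Alternatives changed the offset, scaling, signal, slide correction, arrays fitted, filter, probe choice, flags and source of values. Plots used Python 3.11.15 with matplotlib 3.10.9.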

Additional observations from a re-analysis of the deposited data

How the results depend on the processing

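No called difference of a member changed sign under any of 12 other ways of processing or 24 fits without 1 array, and 44 of 72 member differences, none of them called, changed sign at least once. With the slide as a replicate block in place of ComBat the counts of called members were the same in all comparisons (0 after R100, 1 after R50 24 h and 2 between the days of DMSO aggregates, adjusted p of PINK1 after R50 24 h 0.0133), and the block changed no call. For R100 on D8 the count of called members was 1 and not 0 with an offset of 50, scaling to the 75th percentile, the processed signal, the filter on signals well above background, the brightest probe of each gene and the authors' values, each time through PINK1 (adjusted p 0.00454 to 0.0497). For R50 24 h on D8 the count was 0 with no batch correction, with slides 2 and 3 only and with only the arrays of the groups compared (PINK1 -0.39, -0.26 and -0.38, adjusted p 0.271, 0.341 and 0.11), and 2 with the authors' values, where SNCB was called as well (0.44, adjusted p = 0.0308). Between the days of DMSO aggregates it was 1 (SNCB) in the same 3 settings, and scaling to the 75th percentile called UCHL1 (0.25, adjusted p = 0.0401) in place of PINK1 (0.21, adjusted p = 0.102). An offset of 50 gave 1 called day-by-rotenone difference for R50 24 h (PINK1, adjusted p = 0.0443). Without single arrays the counts ranged from 0 to 2 for R50 24 h on D8, from 0 to 1 for R50 12 h on D8 and from 1 to 2 between the days. The cause of these shifts was not tested, except that fewer arrays entered with slides 2 and 3 only, with only the groups compared, and without single arrays. Scaling moved the median of all genes by 0.142 and 0.169 in the day-by-rotenone differences for R100 and R50 12 h (75th percentile) and by 0.126 for R100 on D8 and 0.188 between the days (processed signal). LRRK2, near background, is beyond what these arrays measure.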
